A study of Mus musculus with 3 samples.

Results

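The ATP synthase of mitochondria is a rotary enzyme built from a catalytic head called F1, a membrane ring of c subunits, and stalks and membrane subunits that hold these parts together. Protons that return through the membrane turn the c-ring, the ring turns the central shaft, and the head then makes ATP from ADP and phosphate. ESRRA, the estrogen-related receptor alpha, is a nuclear receptor known in other tissues for binding near genes of oxidative phosphorylation, at a half-site whose extended form reads TCAAGGTCA. The genes described here are the 8 that encode F1 and the c-ring. They are Atp5a1 (alpha subunit), Atp5b (beta subunit, which carries the catalytic sites), Atp5c1 (gamma subunit, the rotating shaft), Atp5d (delta) and Atp5e (epsilon), which sit at the foot of that shaft, and Atp5g1, Atp5g2 and Atp5g3, which are separate genes for the same mature c subunit with different import sequences. They are 8 of 22367 annotated protein-coding genes and were listed by their role in the enzyme, whether or not they had a peak, but the enzyme itself was chosen with earlier results of these data known. A gene was linked to every ESRRA peak whose midpoint lay within 30 kb of a start site of any of its transcripts. This is the distance in the study's definition of target genes. That definition also required a change in the study's RNA-seq data, which were not used here.

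Chromatin for the ESRRA ChIP-seq came from duodenal villus epithelium of adult wild-type mice, which the study's methods give as C57BL/6 animals on regular chow. The series holds 2 ESRRA ChIP libraries and 1 library of input chromatin, and no genotype or treatment is compared. The authors pooled both ChIP libraries before they called peaks, so that 1 list of 1639 peaks on the mm9 genome was available, with no value per library and hence no replicate error for anything below. The list gives neither mapped reads per library nor peak height, every peak is 601 bp wide, and the epithelial identity of the cells cannot be checked on it because it holds no expression values. Intervals given below are 95% Wilson intervals and cover counting error only.

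All of the 8 genes had an ESRRA peak. The share was 8 of 8 within 30 kb (interval 67.6 to 100%), where 8.75% of all annotated protein-coding genes had one. As the list was not chosen independently of these peaks, the 2 shares are a description. It was again 8 of 8 within 1 kb of a start site, where the share of all protein-coding genes was 2.08%. No member was without a peak, and the farthest nearest peak had its midpoint 451 bp from a start site. The genes were linked to 11 peaks in total, of which 8 lay at their own promoters and 3 lay nearer to another gene. Each of the 11 peaks was made of sequence that occurs once in the genome by the median of its 24-base words, whereas 19.8% of all peaks exceeded a median of 10 copies.

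Matches to the receptor's half-site in these peaks are shown first, since they differ between the genes and the differences recur below. A half-site here is a sequence match only, and binding of the receptor to it was not tested. Each line gives a half-site, or a group of half-sites less than 100 bp apart, with 20 bases on each side, read 5′ to 3′ on the strand on which the half-site reads AGGTCA. Capitals mark AAGGTCA, or AGGTCA where the base before it is not A. The coordinates are those of mm9, and the sign in brackets is the strand that was read.

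Atp5b, chr10:127520532-127520577 (-): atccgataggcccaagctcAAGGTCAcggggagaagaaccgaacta
Atp5c1, chr2:10001783-10001828 (-): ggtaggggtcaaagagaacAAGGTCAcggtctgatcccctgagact
Atp5d, chr10:79605400-79605445 (+): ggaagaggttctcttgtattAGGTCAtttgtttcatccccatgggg
Atp5e, chr2:174289144-174289270 (+): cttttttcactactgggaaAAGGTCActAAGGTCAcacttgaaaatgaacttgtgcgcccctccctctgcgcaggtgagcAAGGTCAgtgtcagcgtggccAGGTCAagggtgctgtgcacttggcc
Atp5e, chr2:174289553-174289598 (+): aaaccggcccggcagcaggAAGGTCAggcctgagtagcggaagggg
Atp5g1, chr11:95936481-95936526 (+): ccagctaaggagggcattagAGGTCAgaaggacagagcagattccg
Atp5g2, chr15:102501258-102501387 (+): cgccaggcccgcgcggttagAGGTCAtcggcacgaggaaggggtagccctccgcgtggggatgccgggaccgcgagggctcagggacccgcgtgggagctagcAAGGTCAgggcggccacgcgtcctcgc
Atp5g3, chr2:73749120-73749165 (+): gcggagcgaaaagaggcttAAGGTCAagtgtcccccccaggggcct
Atp5g3, chr2:73749410-73749455 (+): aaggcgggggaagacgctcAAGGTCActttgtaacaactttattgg

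Only the Atp5b and Atp5g3 lines hold the full sequence TCAAGGTCA, Atp5g3 in the second of its lines. The Atp5d and Atp5g1 lines hold the short form alone, as does the first of the half-sites of Atp5g2. The Atp5e group holds 4 half-sites that all point the same way. Counted from one AGGTCA to the next, its first pair is separated by only 3 bases, the last being the first capital A of the second site. The sites of Atp5a1 are described by position only.

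**Figure D1:**
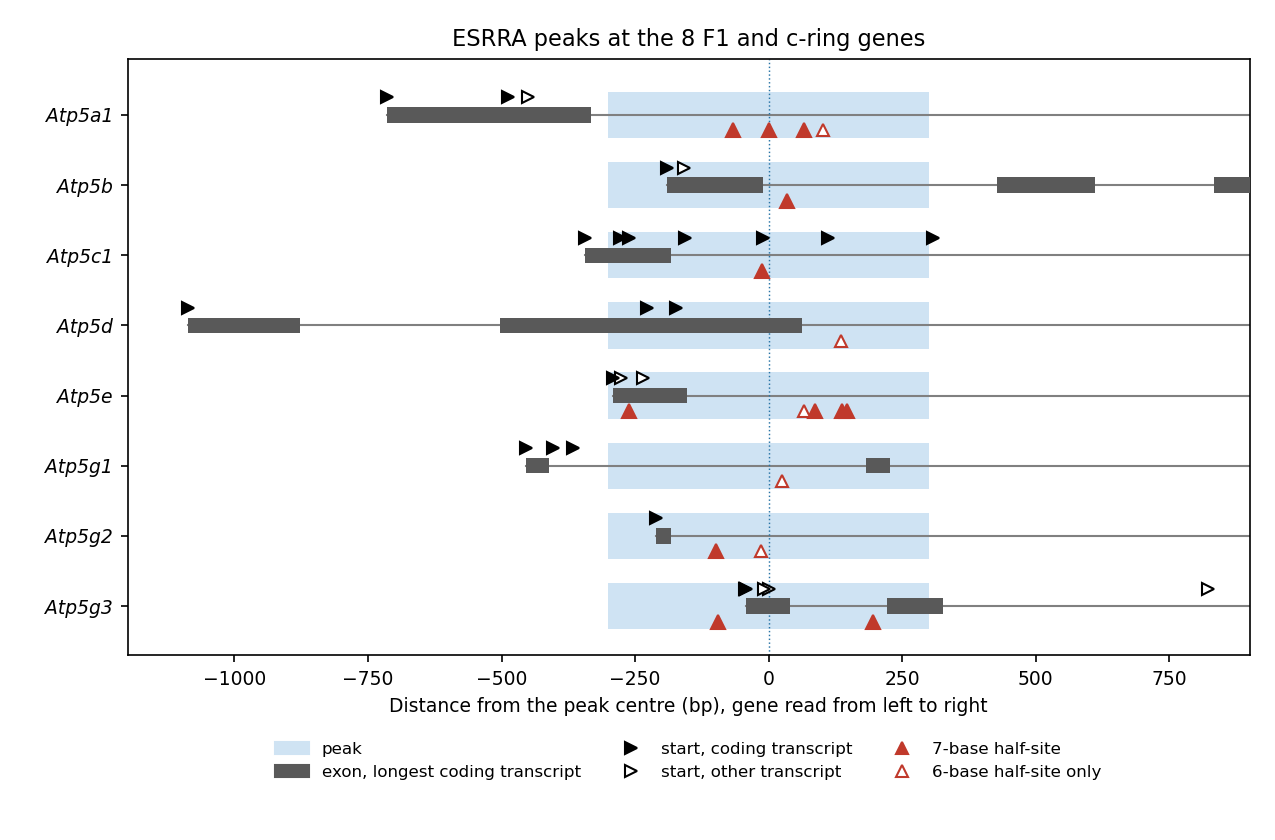
Map of the 8 promoter peaks, each 601 bp wide and aligned at its centre (x axis, distance from the peak centre in bp, with every gene read from left to right). Dark boxes are exons of the transcript with the longest coding sequence, arrowheads are annotated starts, filled triangles are AAGGTCA half-sites and open triangles are AGGTCA half-sites preceded by another base. Half-sites were searched only inside the blue peaks, so none outside them is drawn. Most triangles lie to the right of the starts, and the Atp5e row holds 4 filled triangles.

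The F1 genes were examined gene by gene, beginning with the subunits that form the hexagonal head. The Atp5a1 peak (ENSMUSG00000025428.9, chromosome 18, 78012882 to 78013482) lay farthest from a start site among the 8, with its midpoint 451 bp downstream of the nearest start, 487 bp downstream of the nearest start of a protein-coding transcript and 714 bp downstream of the outermost start. The midpoint was in the first intron of transcript Atp5a1-001. The peak held 3 AAGGTCA sites, all on the strand of the gene and all in this intron, at 645, 712 and 779 bp from the start of Atp5a1-001. Their spacing was even, at 67 bp from the first to the second and 67 bp from the second to the third, and the middle site was 2 bp from the peak midpoint. The windows of 67 bases around the 3 sites were 31.3 to 47.8% identical to each other, compared base by base without gaps. The identity between unrelated windows was not computed, and whether a diverged repeat lies here was not tested. Another half-site, in the short form, lay 35 bp further on.

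The Atp5b peak (ENSMUSG00000025393.5, chromosome 10, 127520220 to 127520820) spanned positions -109 to 491 relative to the start of Atp5b-001, the only protein-coding transcript of the gene. Its midpoint was 191 bp downstream of this start, or 158 bp from the start of a noncoding transcript, in the first intron. It held a single half-site, the full TCAAGGTCA shown above, 227 bp downstream of the start in the first intron and 36 bp from the midpoint. This site pointed against the direction of transcription.

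The peaks of the shaft genes differed from each other in sequence. The Atp5c1 peak (ENSMUSG00000025781.8, chromosome 2, 10001493 to 10002093) was centred 10 bp downstream of the nearest of 7 annotated starts and 344 bp downstream of the outermost one. All of its 601 bases lay in exons of annotated transcripts, and its only half-site lay 14 bp from the midpoint, on the strand of the gene. It was the only one of the 8 promoter peaks with a second protein-coding gene within 1 kb. This gene is Kin, which is transcribed in the opposite direction from a start 83 bp away from the outermost Atp5c1 start, and the peak midpoint was 427 bp upstream of the nearest Kin start. The Atp5c1 peak was therefore within the body of Atp5c1 but also in the upstream region of Kin.

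The Atp5d peak (ENSMUSG00000003072.9, chromosome 10, 79604988 to 79605588) depended more than the others on which start was used. Its midpoint was 173 bp downstream of the start of the protein-coding transcript Atp5d-003, 1086 bp downstream of that of Atp5d-002, which has the longest coding sequence, and 3911 bp downstream of the outermost start, that of a noncoding transcript. It lay in coding exon 2 of Atp5d-002, and 364 of its bases were exonic. No AAGGTCA was found in this peak. Its only half-site, in the short form, was 133 bp from the midpoint in the second intron. The Atp5e peak (ENSMUSG00000016252.7, chromosome 2, 174289014 to 174289614) was centred 292 bp downstream of the start of Atp5e-001, the single protein-coding transcript. Its midpoint was in the first intron of Atp5e-001 but in an exon of 2 of the 3 transcripts of the gene. The peak held 5 half-sites, the most of any of the 8, and 4 of them had the form AAGGTCA. Of these, 3 lay in the first intron of Atp5e-001 at 380, 432 and 441 bp from the start, and 1 lay in its untranslated first exon at 32 bp. All 5 were on the strand opposite to the gene, at 68 to 260 bp from the midpoint, so that none was at the centre of the peak.

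The c subunit genes each had 1 peak within 30 kb, at their own promoter. The Atp5g1 peak (ENSMUSG00000006057.8, chromosome 11, 95936229 to 95936829) was centred 366 bp downstream of the nearest of 3 protein-coding starts, in the first intron, which is 593 bp long. It held no AAGGTCA and a single short half-site 27 bp from the midpoint. The Atp5g2 peak (ENSMUSG00000062683.4, chromosome 15, 102500967 to 102501567) was centred 211 bp downstream of the only annotated start, also in the first intron. It held a short half-site 12 bp from the midpoint and an AAGGTCA 96 bp from it, both against the direction of the gene. The Atp5g3 peak (ENSMUSG00000018770.3, chromosome 2, 73749039 to 73749639) was the only one centred on a start: its midpoint was the first base of a noncoding transcript and 43 bp downstream of a protein-coding start, in the untranslated first exon. It held 2 AAGGTCA sites, with the full TCAAGGTCA 49 bp upstream of the start of Atp5g3-002 and the other site 241 bp downstream of it in the first intron. The 3 genes for one protein product each had a half-site in the first intron that pointed against the gene. Near the midpoint, Atp5g1 and Atp5g2 both read TAGAGGTCA. Only the bases TAG are a likeness here, since AGGTCA was the sequence searched for. Atp5g2 and Atp5g3 each held 2 half-sites with at least 1 AAGGTCA, while the full TCAAGGTCA was found in Atp5g3 alone.

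The position of the peaks relative to the starts was similar among the 8 genes. Measured to the nearest start of any transcript, the midpoints lay from 0 to 451 bp downstream, with a median of 192 bp (quartiles 121 and 268 bp). None lay upstream. Among all 465 protein-coding genes with a peak within 1 kb, 42.6% had the midpoint between 0 and 500 bp downstream. For the other 457 genes of that group the median was 104 bp downstream (quartiles -242 and 367 bp), with 187 of them upstream. Measured to the nearest start of a protein-coding transcript, the 8 midpoints lay 10 to 487 bp downstream. Measured to the outermost start they lay 44 to 3911 bp downstream, the last value being that of Atp5d. In 6 of the 8 genes the midpoint was in the first intron of the transcript with the longest coding sequence, and in 2, Atp5d and Atp5g3, it was in an exon. This depends on the transcript. Among those 6 genes the midpoint was exonic in 1 of 5 transcripts of Atp5a1, 3 of 7 of Atp5c1 and 2 of 3 of Atp5e.

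**Figure D2:**
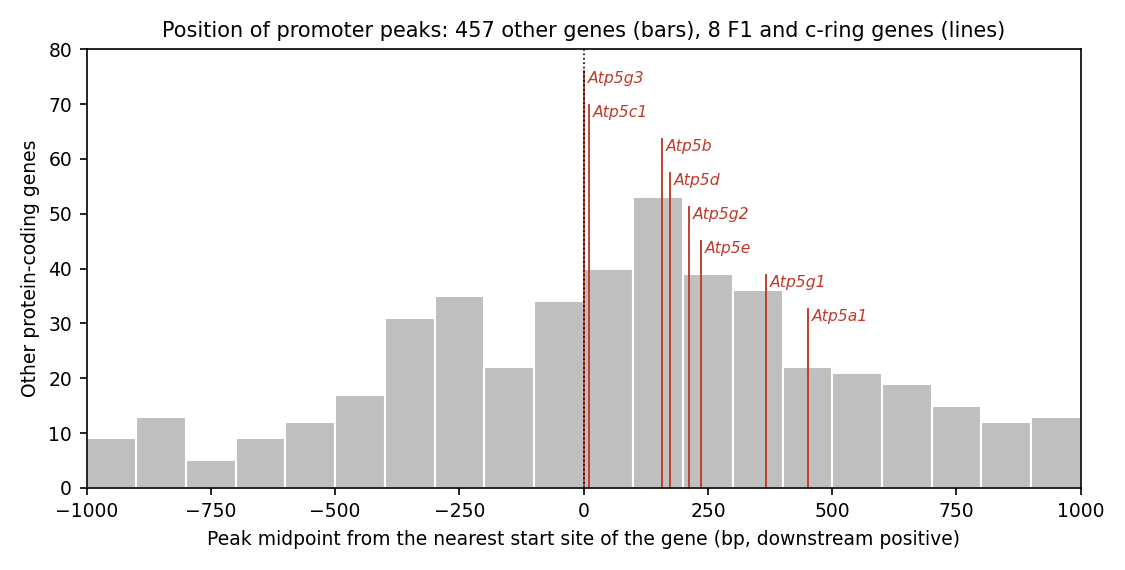
Position of the peak midpoint relative to the nearest start site of a gene (x axis, bp, downstream positive). Gray bars count the other 457 protein-coding genes with a peak within 1 kb, in bins of 100 bp (y axis), and each red line marks 1 of the 8 F1 and c-ring genes, its height having no meaning. The red lines run from 0 (Atp5g3) to 451 bp (Atp5a1), while the gray bars extend to both sides of the start.

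Half-sites were counted in the 8 promoter peaks and set beside the 426 single-copy peaks within 1 kb of a protein-coding start, which include the 8. The peak held AAGGTCA in 6 of 8 genes (75.0%, interval 40.9 to 92.9%), against 54.0% of the 426 peaks. It held the full TCAAGGTCA in 2 of 8 (25.0%, interval 7.15 to 59.1%), against 18.3%. Over the whole peak, the wide interval of the 8 includes the share of the 426 for both. Allowing any base before it, AGGTCA was present in 8 of 8 (interval 67.6 to 100%), and in 71.8% of the 426, which the interval includes. Among the bases within 100 bp of the midpoint alone, AAGGTCA was again in 6 of the 8 peaks (interval 40.9 to 92.9%), against 36.2% of the 426, and AGGTCA was in 7 of the 8 (87.5%, interval 52.9 to 97.8%), against 49.8%. These intervals do not include the share of the 426, but the lower limits of 40.9 and 52.9% lie close to 36.2 and 49.8%. As the 8 genes are part of the 426 and were not chosen independently of these peaks, this is a description and not a test. The full TCAAGGTCA was in 2 of the 8 there (interval 7.15 to 59.1%), against 11.5%, which the interval includes. The reversed sequence ACTGGAACT, used as a negative control, was in 0 of the 8 and in 0.469% of the 426. Windows of the same width 2 kb to each side of all peaks held AGGTCA in 32.3%, AAGGTCA in 12.1% and TCAAGGTCA in 1.64%. A lone AGGTCA, as in the peaks of Atp5d and Atp5g1, was thus common away from peaks as well.

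Some of the peaks held several sites. At least 3 AAGGTCA sites were present in 2 of the 8 peaks, those of Atp5a1 and Atp5e, and in 2.11% of the 426 promoter peaks. The 8 peaks contained 17 AGGTCA half-sites, of which 12 had the form AAGGTCA. All 9 pairs of consecutive half-sites in them pointed the same way, where 59.4% of 192 such pairs in the 426 peaks did, but the pairs of one peak are not independent of each other. By the transcript with the longest coding sequence, 10 of the 12 AAGGTCA sites were in a first intron, 1 in an exon and 1 upstream of the gene. Other transcripts differ, as all 601 bases of the Atp5c1 peak and 593 of the Atp5e peak lay in an annotated exon. The Atp5c1 site was therefore also exonic. So were the 3 first-intron sites of Atp5e, as the rest of that peak lay upstream of the gene's outermost start. The Atp5a1 midpoint, 2 bp from its middle site, was in an exon of 1 of 5 transcripts. Of the 12 sites, 4 pointed in the direction of transcription of the gene and 8 against it. Of the 13 AAGGTCA sites in all 11 peaks, 3 (23.1%) lay within 50 bp of the midpoint, in Atp5a1, Atp5b and Atp5c1, and this share was 37.8% of 294 sites in the 426 promoter peaks. This share counts sites, so that the 4 off-centre sites of Atp5e weigh more than the single site of Atp5b, whereas the central counts above count peaks.

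The sequence around the starts was also read in fixed windows. These were added after the peaks had been seen and overlap them, so the counts are not independent of those above. From 0 to 599 bp downstream of the start of the longest coding transcript, AAGGTCA was present in 6 of the 8 genes, all but Atp5d and Atp5g1, and in 8.67% of 22359 protein-coding genes. The full TCAAGGTCA was there in 1 of the 8, Atp5b, and in 0.908% of all genes. In a window across the start, from -250 to 49 bp, AAGGTCA was present only in Atp5e and Atp5g3, against 3.81% of all genes. In windows of 300 bases the number of the 8 genes with a site was 0 from -600 to -301 bp, 1 from -300 to -1 bp, 5 from 0 to 299 bp, 3 from 300 to 599 bp and 4 from 600 to 899 bp. Some of these sites lay outside the peaks. The site of Atp5a1 between 0 and 299 bp was 1 of them, as its peak began 414 bp downstream of the start, and the peak of Atp5g1, which ended at 755 bp, held no AAGGTCA although the window from 600 to 899 bp did.

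**Figure D3:**
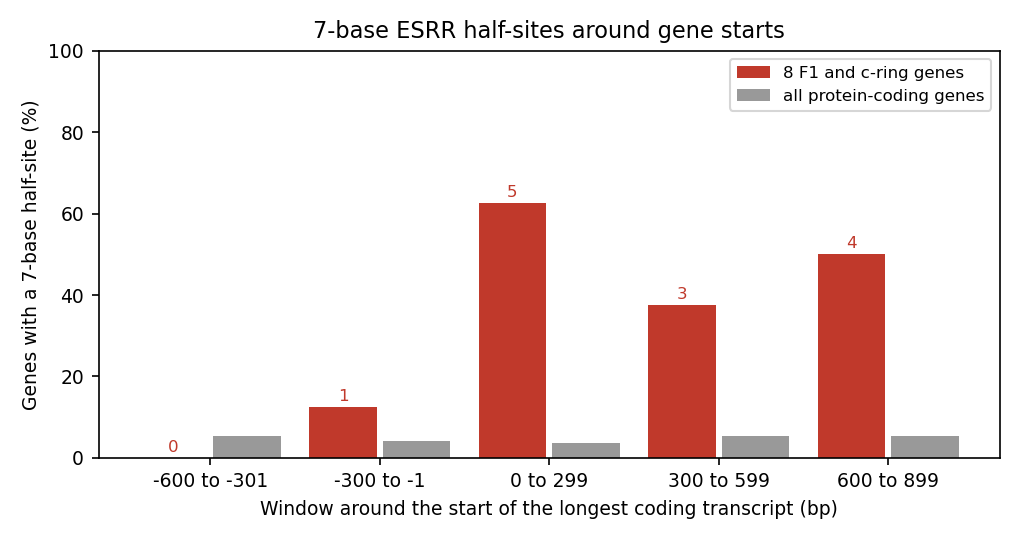
Share of genes (y axis, %) with AAGGTCA on either strand in windows of 300 bases around the start of the transcript with the longest coding sequence (x axis, bp). Red bars are the 8 F1 and c-ring genes, with the number of genes above each, and gray bars are all 22359 protein-coding genes with a coding transcript. The red bars stand at 0 genes from -600 to -301 bp, 1 from -300 to -1 bp and 5 from 0 to 299 bp. They stand at 3 from 300 to 599 bp and 4 from 600 to 899 bp, while the gray bars stay between 3.62 and 5.45%.

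Sequences of other promoter factors were searched on both strands in the same 8 peaks. AAGATGGCG, a form of the YY1 site, was in 3 of 8, at Atp5a1, Atp5e and Atp5g2, and in 5.40% of the 426 promoter peaks. GGGCGG, the SP1 box, was in 5 of 8 and in 55.4%. GCGCATGC, part of the NRF1 site, was in 1 of 8, at Atp5g2, and in 3.05%, and CCGGAAGT, a site of ETS factors, was in 0 of 8 and in 7.04%. CAAAGTCCA, a form of the HNF4A site, was in 0 of 8 and in 0.939%. A missing match says only that these letters are not in the window.

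The promoter peaks of the 8 genes were rich in G and C. Their GC content ranged from 51.4% at Atp5g1 to 64.9% at Atp5g3, with a median of 62.2%, against a median of 57.1% in the 426 promoter peaks (quartiles 52.1 and 62.6%). The ratio of observed to expected CpG ranged from 0.531 at Atp5g1 to 0.886 at Atp5g3, with a median of 0.766 against 0.604. Atp5g1 had the lowest value of both measures and Atp5g3 the highest, and both encode the c subunit. The number of bases annotated as exon ranged from 30 of 601 at Atp5g2 to 601 of 601 at Atp5c1.

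The 3 remaining peaks within 30 kb were nearer to other genes. Of these, 2 were linked to Atp5d, with midpoints 4848 and 6328 bp downstream of its nearest start, but they lay 1054 and 414 bp from the nearest start of Midn, a neighbour on the same strand. The one at Midn (chromosome 10, 79611143 to 79611743) held the full TCAAGGTCA, which the promoter peak of Atp5d lacked. The last, at -9232 bp and thus upstream of Atp5e, was 256 bp from a start of its neighbour Slmo2 (chromosome 2, 174298538 to 174299138), with the short half-site only. Around the promoter peaks the number of protein-coding genes with a start within 30 kb ranged from 1, at Atp5g2, to 5, at Atp5d, the gene itself included. In each of the 8 promoter peaks the nearest start was that of the F1 or c-ring gene.

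The other nuclear genes of the enzyme were compared as counts. Of 9 stalk and membrane subunits, 6 had a peak within 30 kb (66.7%, interval 35.4 to 87.9%) and 5 within 1 kb. Those 5 were Atp5j, Atp5l, Atp5o, Usmg5 and 2010107E04Rik, with midpoints 26 to 251 bp downstream of a start, and each of their peaks held AAGGTCA. The sixth was Atp5h, a subunit of the peripheral stalk, whose nearest peak was 27495 bp upstream. Atp5f1, the b subunit of that stalk, had its nearest peak 1193509 bp away, Atp5j2 834163 bp and Atp5k 85396 bp away. Of 17 nuclear genes of both lists, 13 thus had a peak within 1 kb and 3 had none within 30 kb, all 3 among the stalk and membrane subunits. The difference between the lists was not tested, and the interval of the stalk and membrane list overlaps that of the 8 genes.

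The assembly factors Atpaf1, Atpaf2 and Tmem70 and the inhibitor Atpif1 had their nearest peaks 219753 to 2021773 bp away (0 of 4 within 30 kb, interval 0 to 49.0%). This interval includes the 8.75% of all protein-coding genes, so the list is not set apart from them. These genes act on the enzyme without being part of its structure. The V-type ATPase, a related rotary enzyme that pumps protons into lysosomes and other compartments, had 3 of 25 genes with a peak within 30 kb (12.0%, interval 4.17 to 30.0%) and 0 of 25 within 1 kb (interval 0 to 13.3%), which is close to the 8.75% and 2.08% of all protein-coding genes. Cytochrome c oxidase, the complex that reduces oxygen at the end of the respiratory chain, had 12 of 17 genes with a peak within 30 kb (70.6%, interval 46.9 to 86.7%). Of these, 10 were within 1 kb, namely Cox4i1, Cox5a, Cox5b, Cox6a1, Cox6c, Cox7a1, Cox7a2, Cox7b, Cox7c and Cox8a. Their midpoints lay from 58 bp upstream to 658 bp downstream of a start, and 8 of the 10 peaks held AAGGTCA.

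**Figure D4:**
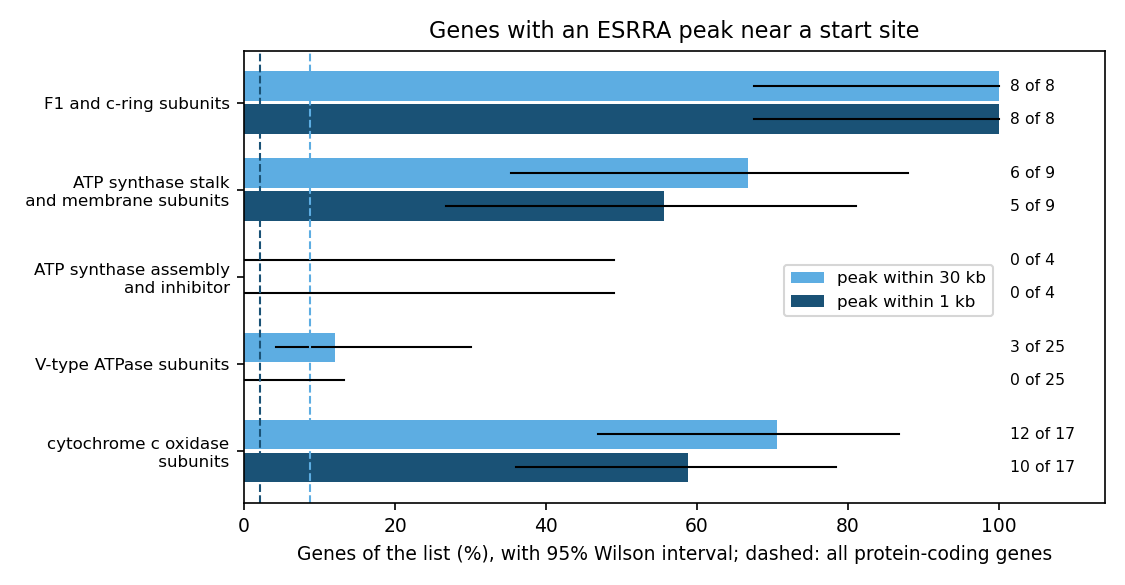
Share of the genes of each list (x axis, %) with an ESRRA peak midpoint within 30 kb (light bars) or 1 kb (dark bars) of a start site. Black lines are 95% Wilson intervals, the counts stand at the right, and the dashed lines mark 8.75% and 2.08%, the shares of all protein-coding genes at these distances. The F1 and c-ring list reaches 8 of 8 at both distances, and the V-type ATPase list has 0 of 25 within 1 kb.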

How the data were processed

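ESRRA ChIP-seq libraries (2) and an input library (1) of duodenal villus cells were grouped by their titles. As the labels and the study's methods give it, the authors aligned reads to mm9 with Bowtie2 (2.2.6), merged both ChIP libraries with SAMtools (0.1.19) and called peaks with MACS2 at a p-value of 1e-5. The deposited list gives a chromosome, start and end per peak, in base pairs and with no score. The origin of the common peak width is not given in the sources used here. Because the libraries were pooled before calling, a peak of one library alone and a peak near the threshold cannot be recognised. The study's methods give a range for the sequencing depth of the libraries, and the mapped reads of each are not given in the sources used here.

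Peaks were compared with mouse NCBI build 37 (the build called mm9) and GENCODE M1, in Python (3.11.15) with SciPy (1.17.1), NumPy (2.4.6) and numba (0.67.0); samtools (1.23.1) indexed the genome. Coordinates are counted from 1, and distances run from the peak midpoint to the nearest start of any transcript. Motifs were matched exactly on both strands, so that AGGTCA matches include every AAGGTCA, and AAGGTCA matches every TCAAGGTCA. Copy number was the median genome count of a peak's 24-base words on both strands, and a median of at most 10 was called single-copy. Flanking windows (3107) avoided other peaks and gaps. The functions were checked on simulated sequence with planted sites and copies. The named genes were all 8 members, every gene of the other ATP synthase lists with a peak within 30 kb, the listed genes with a peak within 1 kb, and the nearest other gene of a linked peak; distances of ATP synthase genes without a peak were added after their values were seen, as were the counts of 3 or more sites, of half-site pairs and of start windows. Members and lists were chosen with earlier results of these data known. No test was run, since 1 pooled list has no replicates and the genes were not drawn independently of earlier results. Expression was not analysed here.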

Additional observations from a re-analysis of the deposited data

How the results depend on the processing

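The number of F1 and c-ring genes with a peak, 8 of 8 within 30 kb, was 8 in all 11 alternatives, which changed the distance from 5 to 100 kb, measured from the peak edge, used other start sites or only the nearest gene, joined peaks less than 1 kb apart, or left out multi-copy peaks. Each gene had a single-copy peak at most 451 bp from a start, with that gene nearest to it. These alternatives therefore could hardly change the count. The number of linked peaks, 11, ranged from 8 when only the gene with the nearest start was counted to 14 within 100 kb. Within 1 kb the number of genes fell from 8 to 7 when only the outermost start of a gene was used, an alternative added after seeing the data, because Atp5d then had none. The count of linked peaks with TCAAGGTCA, 3 of 11, was 8 with at most 1 mismatch, and that with AAGGTCA, 7 of 11, was 11 for AGGTCA; both follow from the looser match. The V-type ATPase count, 3 of 25 within 30 kb, was 0 within 1 kb and 5 within 100 kb, which follows from the distance. No other count moved by more than 1.5 times. Leaving out each ChIP library and a stricter p-value were not run, since the list holds neither peaks per library nor scores. No paired analysis was possible because the peaks were called on pooled reads. The lack of values per library and the small number of genes limit every share given here.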
